A study of Danio rerio with 15 samples.

Results

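The genes tcap and nmrk2 were followed through the first 12 h of a venous clot in zebrafish larvae. The gene tcap encodes telethonin, a small protein of striated muscle. The gene nmrk2 encodes a muscle-enriched nicotinamide riboside kinase. Both were chosen by their measured values: in an earlier reading of these data they stood high at 1 h or 3 h after the injury. Their own levels and differences are therefore a description, given here without a test. Of 32520 gene IDs in the table, 3 carried the symbols tcap (ENSDARG00000007344), nmrk2 (ENSDARG00000067848) or NMRK2 (ENSDARG00000101844). The last is another nmrk2 copy, written in capitals. All 3 passed the filter on low values, which kept 13051 of 28103 genes.

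RNA was sequenced from tissue of larvae of the genotype Tg (flk1:eGFP; gata1:dsRed), in which endothelium is green and erythroid cells are red. The transgenes were shared by every group, and the labels give no age. The control was uninjured venous tissue. The other groups were thrombus tissue taken 1 h, 3 h, 6 h and 12 h after a laser injury of the venous endothelium, and each of the 5 groups had 3 libraries. Cells were collected from frozen sections by laser-capture microdissection, in which a laser cuts out chosen areas under the microscope. Nothing in the labels says which animals a library came from. Libraries may share an animal, and the p-values below may be too small and may measure technical spread only. There was 1 uninjured group, for which the labels give no time. Replicates are called A, B and C, as in the column names. The 1 h column named B matches no 1 h sample title and was assigned to the 1 h group only.

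Telethonin caps the ends of paired titin molecules at the Z-disc, the plate that borders each sarcomere, the contractile unit of muscle. In zebrafish it also helps to link sarcomeres to T-tubules, the membrane tubes that carry the excitation signal inward, and its message responds to stretch. Loss of telethonin in people gives a limb-girdle muscular dystrophy. Nicotinamide riboside kinases phosphorylate nicotinamide riboside to nicotinamide mononucleotide, the direct precursor of the coenzyme NAD. In zebrafish, nmrk2 is needed for laminin to assemble at the boundaries between muscle segments, where fibres attach. Which of the copies read here has that part was not settled.

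The libraries held 12486844 to 15651535 reads, recovered from the deposited values, with 10953 to 16337 genes above 0. Skeletal muscle was present in every group. The 8 skeletal muscle markers, among them ckmb (muscle creatine kinase) and atp2a1 (the fast-fibre calcium pump), summed to 18740 to 36690 FPKM, the number of fragments scaled to transcript length and to library size. PVALB, a parvalbumin and one of those markers, was listed at 0 in 14 of 15 libraries. Parvalbumin genes with a number straight after the name could not match this marker and were not counted in the sum. The 13 cardiac markers summed to at most 25.6 FPKM in any library, with the cardiac myosin light chain MYL7 and the natriuretic peptide genes nppa and nppb at 0 in all 15. HAND2 had the highest mean of the 13, at 6.49 FPKM. The listed cardiac myosin names vmhc and amhc matched no gene, and myh6 was counted with the sarcomere genes. The endothelial markers, which should define venous tissue, summed to 58.0 to 60.2 FPKM in the control. These are bulk samples, so fewer cells of a type and less RNA per cell cannot be told apart.

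The level of tcap was low in uninjured tissue, highest at 3 h and back near the control level at 12 h. In the control, tcap had 1.99, 16.0 and 8.94 FPKM in replicates A, B and C, from 36, 298 and 143 reads. At 1 h it had 181 FPKM in A, 825 in the column named B and 416 in C. At 3 h it had 1529, 1511 and 1696 FPKM, from 23504, 22539 and 27038 reads. All 3 libraries at 3 h stood above every other library, and the highest was 1.12 times the lowest, against 8.05 times in the control and 4.57 times at 1 h.

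At 6 h, tcap was at 189, 281 and 119 FPKM, above every control library and overlapping the 1 h libraries. At 12 h it was listed at 0 in A and had 11.3 and 6.22 FPKM in B and C. The 0 allows up to 0.196 FPKM, the value of 3 reads in that library, for counting error only. The 12 h and control libraries overlapped. Group means were 8.97 ± 7.01 FPKM in the control (SD, n = 3 in every group), 473.7 ± 326 at 1 h, 1578 ± 102 at 3 h, 196 ± 80.9 at 6 h and 5.84 ± 5.66 at 12 h. The mean at 3 h was 176 times the control mean, and the mean at 1 h was 52.8 times it.

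Differences are given below as log2 differences, on the log2(FPKM + 1) scale, which understates the change of low genes. Against the control, tcap differed by 5.64 (SE 0.97) at 1 h, 7.63 (SE 0.74) at 3 h, 4.55 (SE 0.82) at 6 h and -0.84 (SE 1.33) at 12 h. These 4 comparisons share the same control libraries. Among the 13051 kept genes, tcap had the highest difference at 1 h, the 2nd highest at 3 h and the 4th highest at 6 h. Between 3 h and 6 h it was lower by a log2 difference of -3.08 (SE 0.36), with no overlap of libraries. Without replicate A of 12 h, the 12 h difference turned to 0.24.

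**Figure D1:**
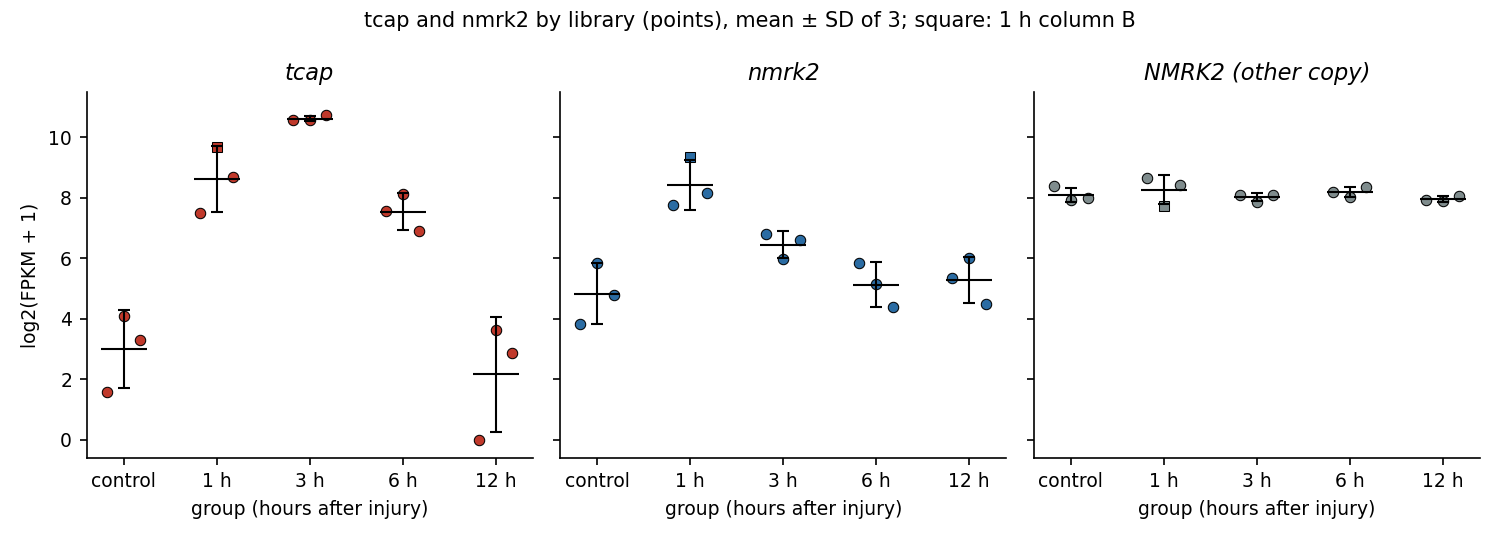
Level of tcap, nmrk2 and the copy NMRK2 on the log2(FPKM + 1) scale, by group, with 1 point per library and bars for mean ± SD of 3 libraries; the square marks the 1 h column named B. tcap was highest in the 3 libraries at 3 h (1511 to 1696 FPKM), nmrk2 in the 3 libraries at 1 h (215 to 658 FPKM), and NMRK2 stayed between 210 and 403 FPKM.

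The level of nmrk2 was highest earlier, at 1 h, and lay nearer the control at 3 h. In the control it had 13.3, 56.6 and 26.7 FPKM in A, B and C. At 1 h it had 215 FPKM in A, 658 in the column named B and 287 in C, all above every other library. At 3 h it had 111, 61.4 and 95.3 FPKM. The lowest of these was just above the highest control library.

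At 6 h, nmrk2 had 56.7, 34.7 and 19.8 FPKM, and at 12 h it had 39.4, 63.3 and 21.3 FPKM. Both groups overlapped the control. Group means were 32.2 ± 22.2 FPKM in the control (SD, n = 3 in every group), 387 ± 237 at 1 h, 89.4 ± 25.5 at 3 h, 37.1 ± 18.6 at 6 h and 41.3 ± 21.1 at 12 h. The mean at 1 h was 12.0 times the control mean and the mean at 3 h was 2.78 times it. On the log2 scale, nmrk2 differed from the control by 3.61 (SE 0.76) at 1 h, 1.63 (SE 0.63) at 3 h, 0.30 (SE 0.72) at 6 h and 0.45 (SE 0.73) at 12 h.

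The rank of nmrk2 among the kept genes was 10 at 1 h, 672 at 3 h and 3989 at 6 h. The sign of its 6 h difference was negative without control replicate A (-0.19) or without 6 h replicate A (-0.06). At 12 h it was negative without control replicate A (-0.05). Control replicate A held the lowest control value of tcap and of nmrk2, and replicate B the highest of both. At 1 h, the column named B held the highest value of both.

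The copy NMRK2 had a different course. Control libraries held 332, 242 and 252 FPKM of it. At 1 h the values were 403 in A, 210 in the column named B and 341 in C, and at 3 h they were 275, 234 and 270. At 6 h they were 295, 258 and 328, and at 12 h 245, 236 and 267. Every group overlapped every other. Its log2 differences from the control lay between -0.13 and 0.17. In the 1 h column named B, where nmrk2 was highest, NMRK2 was lowest of all 15 libraries. Per length, nmrk2 made up 3.84% to 18.9% of the FPKM of both copies together in the control and 34.8% to 75.8% at 1 h. It made up 20.8% to 28.9% at 3 h, 5.69% to 16.2% at 6 h and 7.38% to 21.2% at 12 h. The 1 h and 3 h shares lay above every control share, and the 6 h and 12 h shares did not. The copies are written with the same symbol and may share reads, and the sources used here do not say how the authors' counting split such reads.

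The place of tcap in the order of muscle genes moved with its level. Ranked by mean FPKM among 126 sarcomere and muscle stress genes, tcap was at rank 56 in the control. There it stood between NEB (8.98 ± 3.13 FPKM), which encodes nebulin, the ruler of the thin filament, and spegb (8.39 ± 0.75), which encodes a kinase of the triad. None of these neighbours differed from tcap beyond the spread of its libraries. At 3 h, tcap was at rank 9, between ACTA1 (2806 ± 548 FPKM), a skeletal actin, and myhz1.1 (1373 ± 264), a fast myosin heavy chain. ACTA1 stood above tcap by more than the SD of either. At that time tcap's message was as abundant per length as that of a major filament protein: its lowest library lay above the mean of myhz1.1 but within 1 SD of it.

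In the same order, nmrk2 was at rank 39 in the control and 27 at 3 h. In the control it lay between HSPB1 (34.1 ± 28.8 FPKM), a small heat shock protein, and XIRP2 (30.8 ± 7.68), an actin-binding protein of muscle. At 3 h it lay between MYOZ2 (89.6 ± 35.8), a Z-disc calsarcin, and foxo3b (83.9 ± 8.16), a transcription factor of muscle wasting. None of these differed from nmrk2 beyond their spread. NMRK2 was at rank 19 in the control and 16 at 3 h.

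The share of the other sarcomere genes past the threshold against the control was near that of all kept genes. Of 86 listed sarcomere genes, 69 passed the filter. With the limma test over all kept genes (adjusted p under 0.05), 0 of 69 passed at 1 h, where 0.222% of all kept genes did. At 3 h, 1 of 69 passed, synpo2b, against 1.39% of all kept genes. At 6 h and 12 h, 0 of 69 passed, against 0.0% of all kept genes in each. At an unadjusted p under 0.05, 15 of the 69 (21.7%) stood out at 1 h, where 1218 of all kept genes (9.33%) did. At 3 h the counts were 15 (21.7%) and 1819 (13.9%), at 6 h 2 (2.9%) and 721 (5.52%), and at 12 h 12 (17.4%) and 992 (7.6%). Most of these sarcomere genes were lower than in the control at 3 of the times: 11 of 15 at 1 h, 11 of 15 at 3 h and 10 of 12 at 12 h. At 6 h, 1 of the 2 was lower. The same split over all kept genes was not counted. Over all kept genes, not the sarcomere genes alone, the limma voom test on recovered reads called 1 gene at 6 h and 8 at 12 h.

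The median log2 difference of the 69 genes from the control was -0.11 at 1 h, 0.14 at 3 h, -0.01 at 6 h and -0.07 at 12 h. Over all kept genes the medians were -0.12, -0.13, -0.02 and 0.32. The 12 h median of all kept genes was 0.10 after median ratio scaling. At 1 h, the highest difference among the 69 was 1.48, of myh6, a myosin heavy chain. At 3 h it was 2.16, of myoz3a, and at 6 h it was 1.67, of DES, which encodes the intermediate filament desmin. The difference of tcap was above all 69 at those 3 times. That of nmrk2 was above all 69 at 1 h, below 1 of them at 3 h and below 13 at 6 h.

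**Figure D2:**
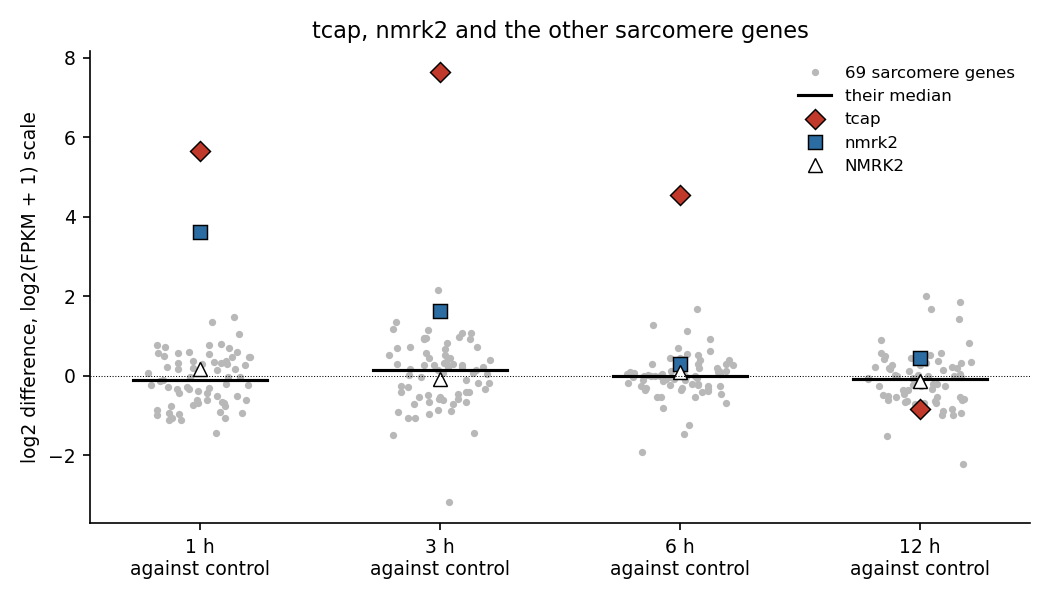
Log2 difference from the control at 1, 3, 6 and 12 h, on the log2(FPKM + 1) scale, of tcap, nmrk2, NMRK2 and 69 sarcomere genes (grey points, with their median as a bar). tcap lay above every grey point at 1, 3 and 6 h, and the medians of the sarcomere genes lay between -0.11 and 0.14.

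The 10 most abundant sarcomere genes were actc1b (82080 FPKM on average over 15 libraries), MYL1 (28310), TNNI2 (10220), TNNT3 (7943), MYL11 (6466), myl13 (4325), ACTA1 (3459), myl10 (2978), myhz1.1 (1443) and TNNC1 (1344). They encode actins, myosin light and heavy chains and subunits of troponin, the calcium switch of the thin filament. None of the 10 passed the test against the control. In a list this short that is near the share of all kept genes called, at most 1.39% at any time. At 1 h the log2 differences of the 10 ran from -0.998 (ACTA1, SE 0.32, adjusted p = 0.311 in limma) to 0.71 (TNNC1, SE 0.32, adjusted p = 0.511 in limma). At 3 h their log2 differences ran from -0.72 (ACTA1, SE 0.32, adjusted p = 0.326 in limma) to 0.33 (TNNC1, SE 0.32, adjusted p = 0.71). For actc1b, the mean was 110400 ± 14810 FPKM in the control and 71170 ± 17220 at 3 h (log2 difference -0.65, SE 0.25, adjusted p = 0.24 in limma). At 1 h the mean of actc1b was 60140 ± 19370 FPKM (log2 difference -0.93, SE 0.25, adjusted p = 0.189 in limma). Among the other sarcomere genes with the smallest p at 3 h, all short of the threshold, were CAPZB, which caps actin at the Z-disc (881 ± 119 to 473 ± 39.3 FPKM, adjusted p = 0.104 in limma), and the myosin-binding protein mybphb (808 ± 167 to 418 ± 93.7 FPKM, adjusted p = 0.172 in limma).

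Sarcomere genes together took 23.9% to 31.1% of FPKM in the control, 12.1% to 20.4% at 1 h, 15.1% to 23.6% at 3 h, 23.3% to 28.5% at 6 h and 15.8% to 27.3% at 12 h. The 1 h and 3 h shares lay below every control share. More than any other gene, actc1b set this sum. It averaged 110400 of a mean sum of 195200 FPKM in the control, and 71170 of 133600 at 3 h. Levels were also read relative to this sum. Per 1000 FPKM of sarcomere genes, tcap had 0.00929 to 0.0759 FPKM in the control, 2.04 to 6.33 at 1 h, 10.2 to 15.0 at 3 h, 0.605 to 1.59 at 6 h and 0 to 0.0618 at 12 h. On the same scale, nmrk2 had 0.0620 to 0.268 FPKM in the control, 1.97 to 5.04 at 1 h, 0.463 to 1.09 at 3 h, 0.1003 to 0.339 at 6 h and 0.198 to 0.346 at 12 h. On this scale, tcap at 1, 3 and 6 h and nmrk2 at 1 and 3 h did not overlap the control. Both genes were chosen for high values at 1 h or 3 h. How many of all kept genes separate from the control in this way, here or in plain FPKM, was not counted.

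Of the sarcomere genes, synpo2b fell at 3 h. It encodes a synaptopodin-like protein of the Z-disc. It had 10.6, 15.1 and 16.1 FPKM in control A, B and C but 0.561, 0.338 and 1.11 in those of 3 h, a log2 difference of -3.17 (SE 0.50, adjusted p = 0.0046 in limma). At 6 h it was at 20.3 to 25.5 FPKM and had risen against 3 h by 3.85 (adjusted p = 0.00137 in limma, and 0.0657 with only the 2 groups fitted), in a comparison that called 1.11% of kept genes. The call at 3 h was kept without each library of the 2 groups in turn. It was lost when only the control and 3 h groups were fitted (adjusted p = 0.0889 in limma) and with voom (adjusted p = 0.0603).

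Titin itself, the partner that telethonin caps, showed no difference past the threshold. In control libraries TTN had 144, 142 and 211 FPKM, against 149, 231 and 245 in those of 3 h (log2 difference 0.32, SE 0.31, adjusted p = 0.713 in limma). Of 11 listed genes whose proteins are reported, mostly from mammals, to bind telethonin, 8 passed the filter and 0 passed the test at 1, 3, 6 or 12 h. Over all kept genes 0.222% passed at 1 h, 1.39% at 3 h and 0.0% at 6 h and 12 h. These shares apply to the lists below as well, and 0 called in a list this short is near them. The median log2 difference of the 8 genes was 0.06 at 1 h and 0.36 at 3 h. The smallest p at 3 h was that of myoz3a, a calsarcin that binds telethonin and calcineurin, which missed the threshold: 0.385 ± 0.614 FPKM in the control and 4.85 ± 0.113 at 3 h (log2 difference 2.16, SE 0.58, adjusted p = 0.0777 in limma). Its relative myoz1b, also below the threshold, went from 602 ± 122 to 366 ± 83.7 FPKM (log2 difference -0.72, adjusted p = 0.272 in limma). The myostatin gene mstnb was listed at 0 in every control library and had 1.40 ± 2.42 FPKM at 3 h (adjusted p = 0.699 in limma). That mean rests on 1 library: 3 h A had 4.19 FPKM, and 3 h B and C were at 0.

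The triad, the contact of T-tubule and sarcoplasmic reticulum, was read from 25 genes, of which 24 passed the filter. None of the 24 passed the test at any time, and the median log2 difference at 3 h was -0.08. The gene with the smallest p at 3 h was ATP2A2, a slow-fibre and cardiac calcium pump, at 1.11 ± 0.821 FPKM in the control and 7.94 ± 5.07 at 3 h (adjusted p = 0.176 in limma). Lower values were seen for cav3, a caveolin of T-tubules (348 ± 68.0 to 178 ± 94.6 FPKM, adjusted p = 0.217 in limma), and STAC3, a calcium channel adaptor (28.6 ± 0.239 to 13.2 ± 4.60 FPKM, adjusted p = 0.245 in limma). All 3 missed the threshold.

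Around nmrk2, the other genes of NAD synthesis showed no gene past the threshold at any time. Of 25 listed genes, 16 passed the filter. At 3 h, 2 of the 16 had a positive log2 difference, and the median was -0.40. At 1 h the median was -0.34 with 5 of 16 positive, and at 12 h it was 0.79 with 12 of 16 positive. Over all kept genes the medians were -0.12 at 1 h, -0.13 at 3 h and 0.32 at 12 h. After median ratio scaling the 12 h median of all kept genes was 0.10, and the list was not read on that scale. How many of all kept genes were positive was not counted. The smallest p at 3 h was that of NAPRT, the nicotinic acid phosphoribosyltransferase of another route to NAD, at 15.3 ± 5.45 FPKM in the control and 3.27 ± 2.39 at 3 h (log2 difference -2.10, SE 0.77, adjusted p = 0.212 in limma). The mitochondrial NAD carrier slc25a51b went from 12.6 ± 2.44 to 7.24 ± 2.06 FPKM (adjusted p = 0.586 in limma). KMO, an enzyme that makes NAD precursors from tryptophan, was listed at 0 in all 3 libraries at 3 h (adjusted p = 0.613 in limma) and in all 3 at 1 h. In the control it ran from 0 to 10.1 FPKM, with a median of 0.241.

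Of 11 listed enzymes that consume NAD, 8 passed the filter and 0 passed the test at any time. Of all kept genes, 1.39% passed at 3 h. The median log2 difference of the list at 3 h was -0.69, against -0.13 over all kept genes. The deacylases SIRT6 and SIRT5 averaged 5.53 ± 1.22 and 5.78 ± 2.42 FPKM in control libraries, against 0.632 ± 1.09 and 1.14 ± 1.97 in those of 3 h (adjusted p = 0.248 and 0.286 in limma). PARP1, which spends NAD at DNA breaks, went from 2.30 ± 1.61 to 0.375 ± 0.563 FPKM (adjusted p = 0.418 in limma). All 3 missed the threshold.

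Zebrafish nmrk2 has a known part in cell adhesion, though which copy has it was not settled here. Of 32 laminin, integrin and linker genes, 28 passed the filter and 0 passed the test at any time. Among all kept genes, 1.39% passed at 3 h. The median log2 difference was 0.02 at 1 h and -0.04 at 3 h. At 3 h the smallest p were those of VCL, which encodes vinculin (18.02 ± 6.41 FPKM in the control, 7.99 ± 6.45 at 3 h, adjusted p = 0.326 in limma), the talin gene TLN2 (adjusted p = 0.413 in limma) and the laminin chain lama4 (adjusted p = 0.49 in limma).

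Of 24 genes of energy stress and fuel use, all of which passed the filter, 0 passed the test at 1, 6 or 12 h. At 3 h, 2 rose past the threshold (8.33%, against 1.39% of all kept genes called in either direction). The first was ucp3, the uncoupling protein of muscle mitochondria. It had 6.86, 31.3 and 43.9 FPKM in control A, B and C, 355, 215 and 451 at 3 h, and 8.43 to 27.98 at 6 h. Its log2 difference was 3.86 at 3 h (SE 0.70, adjusted p = 0.0118 in limma) and -4.15 between 3 h and 6 h (adjusted p = 0.00913 in limma). The call at 3 h was lost without control A (3.10, adjusted p = 0.0739 in limma) or without 3 h A (adjusted p = 0.0504 in limma). With only the 2 groups compared in the fit, neither call held (adjusted p = 0.0976 at 3 h and 0.0669 between 3 h and 6 h in limma).

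The second was PDK2, a kinase that shuts pyruvate dehydrogenase and so spares glucose. Control libraries held 23.7, 34.3 and 76.8 FPKM of it and 3 h libraries 536, 459 and 786 (log2 difference 3.83, SE 0.84, adjusted p = 0.0302 in limma). At 1 h, 1 library stood apart: the column named B had 744 FPKM, against 66.2 in A and 81.7 in C. Between 3 h and 6 h PDK2 fell by 4.65 (adjusted p = 0.0118 in limma), a call lost without 3 h A or any 1 of the 6 h libraries (adjusted p between 0.0503 and 0.0618 in limma) and with no filter (adjusted p = 0.0608). Nearly all of its signal came from 1 of its copies, ENSDARG00000059054 (39.0 FPKM in the control and 589 at 3 h); the other had 6.00 and 4.16. The call at 3 h was lost without control A or B and without any 1 of the 3 h libraries (adjusted p between 0.0671 and 0.15 in limma), with a pseudocount of 0.1 (adjusted p = 0.0685) and with no filter (adjusted p = 0.12). HK2, a hexokinase, missed the threshold at 3 h (0.462 ± 0.477 to 4.99 ± 1.79 FPKM, adjusted p = 0.161 in limma).

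Of 42 genes of muscle stress and turnover, 35 passed the filter, and 2 rose at 3 h (5.71%, against 1.39% of all kept genes called in either direction). The other 33 did not pass, and the median log2 difference was 0.04. The small heat shock protein hspb6 was at 3.57, 15.0 and 12.3 FPKM in control libraries, against 79.8, 82.4 and 82.7 in those of 3 h (log2 difference 3.06, SE 0.61, adjusted p = 0.02 in limma). Like tcap, it had 3 h libraries close to each other, and the 1 h libraries were spread between 13.4 and 79.7 FPKM. The call was lost without control A (2.501, adjusted p = 0.111 in limma), without 3 h A (adjusted p = 0.0686 in limma) or without 3 h B (adjusted p = 0.0559 in limma). It was also lost with no filter (adjusted p = 0.0575 in limma) and with only the 2 groups fitted (adjusted p = 0.0976 in limma).

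FOXO1, a transcription factor that drives protein breakdown in wasting muscle, went from 4.35, 2.15 and 3.99 FPKM in control libraries to 26.3, 28.5 and 18.5 in those of 3 h (log2 difference 2.51, SE 0.47, adjusted p = 0.0144 in limma). Its level at 3 h came from 1 copy, ENSDARG00000099555; the other was at 0 there. The call was lost without control B, 3 h A or 3 h B (adjusted p between 0.0524 and 0.0774 in limma) and with only the 2 groups fitted (adjusted p = 0.105 in limma). HSP90AA1, a cytosolic chaperone of the HSP90 family, missed the threshold, at 1.21, 3.90 and 2.70 FPKM in control libraries, against 105, 42.2 and 15.4 in those of 3 h (log2 difference 3.62, adjusted p = 0.0535 in limma).

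Of 23 myogenic regulators, 20 passed the filter. At 3 h a rise past the threshold was found for FST. This gene, which encodes follistatin, an inhibitor of myostatin and activins, went from 0.421, 0.469 and 0.669 FPKM in control libraries to 17.2, 12.7 and 4.79 in those of 3 h (log2 difference 2.90, SE 0.66, adjusted p = 0.0376 in limma). Its call was lost without any 1 of the control libraries, without 3 h A or B, and without 6 h B or C (adjusted p between 0.0537 and 0.155 in limma). It was also lost with a pseudocount of 0.1, with no filter, with only the 2 groups fitted and with voom (adjusted p between 0.0686 and 0.143). The homeodomain factor six4a missed the threshold at 3 h (21.6 ± 5.63 to 3.72 ± 2.44 FPKM, adjusted p = 0.0777 in limma).

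**Figure D3:**
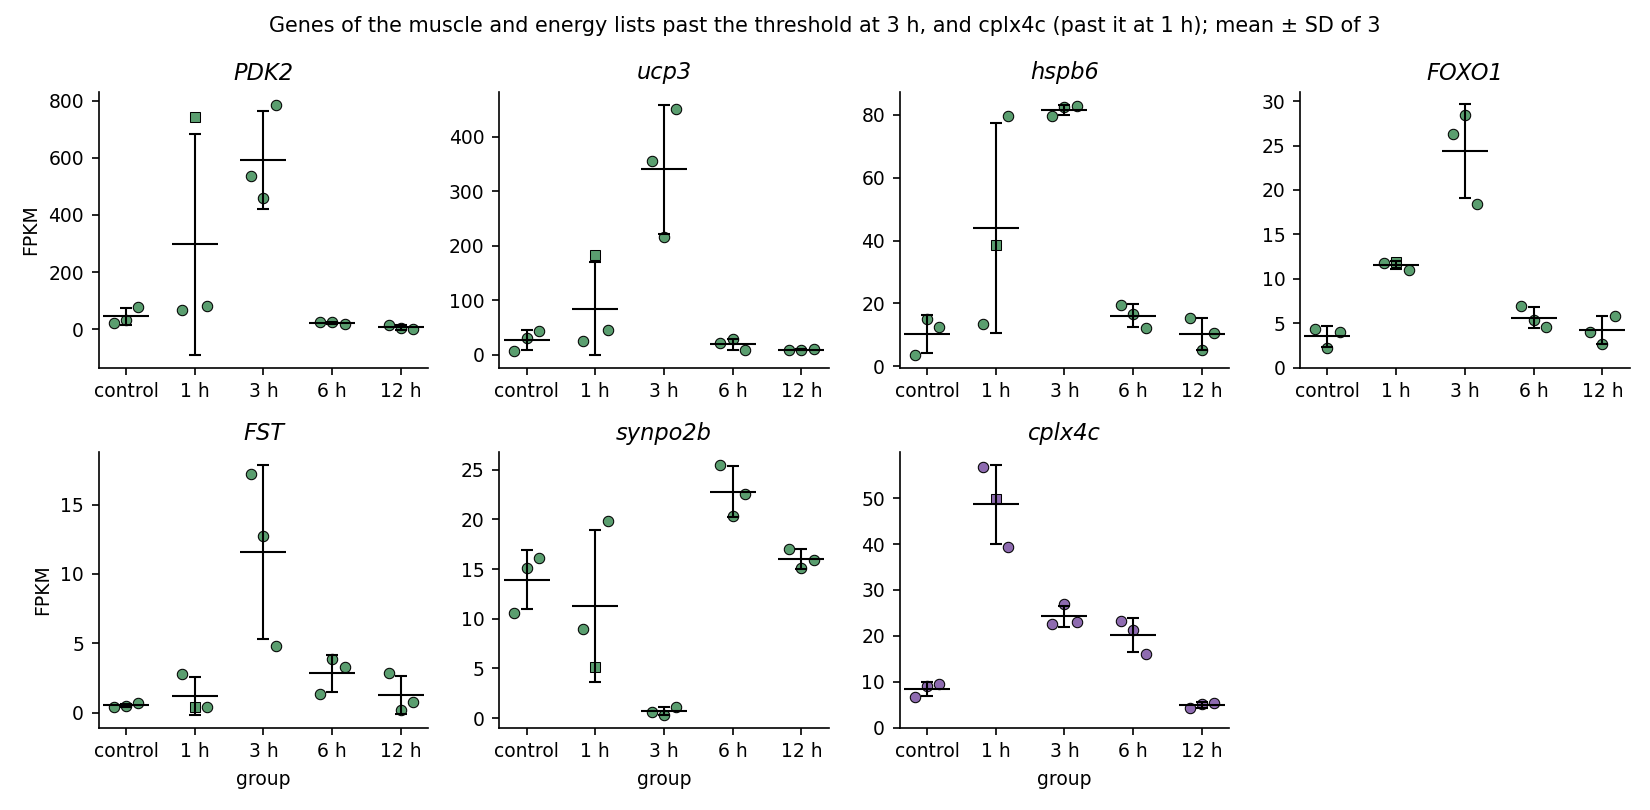
FPKM by group of 6 muscle and energy genes past the threshold at 3 h and of cplx4c, past it at 1 h, with 1 point per library and bars for mean ± SD of 3 libraries; the square marks the 1 h column named B and each panel has its own axis. PDK2, ucp3, hspb6, FOXO1 and FST were highest at 3 h, and synpo2b was lowest there.

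No sarcomere gene was among those listed here as most like tcap in course. Sarcomere genes were 69 of the 11032 genes compared, so finding none in a list this short is near their share. Likeness was the Pearson r of log2(FPKM + 1) over the 15 libraries, which share their group structure, and it was computed for 11032 genes with a name. The highest were SOCS3 (0.96), a feedback inhibitor of cytokine signalling, HMOX1 (0.95), the haem-degrading oxygenase, SRPRA (0.89), a signal recognition particle receptor subunit, and PFKFB3 (0.88), an activator of glycolysis. Next were the AP-1 subunits FOSL1 (0.87) and FOSL2 (0.87), the Polycomb gene cbx7a (0.87) and rusc2 (0.86). SOCS3 had 7.02 to 14.4 FPKM in the control, 122 to 202 at 3 h and 4.62 to 10.3 at 12 h. HMOX1 had 3.35 ± 2.06 FPKM in the control, 47.9 ± 15.9 at 1 h, 168 ± 110 at 3 h and 1.59 ± 1.02 at 12 h.

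The least like tcap were GANC, an alpha-glucosidase (-0.89), GASK1A (-0.88), asb2a.1 (-0.88) and SNRNP35 (-0.87). GASK1A had 5.401 ± 2.62 FPKM in the control and was listed at 0 in all 3 libraries at 3 h. The sarcomere gene most like tcap was myha, a myosin heavy chain (0.69, rank 102), and the median r over the 69 sarcomere genes was 0.05. Between tcap and nmrk2 r was 0.60, which placed nmrk2 at rank 208 for tcap and tcap at rank 146 for nmrk2.

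For nmrk2 the most alike were PER1 (0.89), a clock gene, CAMK2N2 (0.88), an inhibitor of the calcium-dependent kinase CaMKII, the AP-1 subunits FOSB (0.88) and FOS (0.86), MYO1E (0.86), an unconventional myosin, STK35 (0.85), the clock repressor BHLHE40 (0.84) and rfx3 (0.84), a factor of ciliated cells. These peaked at 1 h, or at 1 h and 3 h. PER1 had 0.776 ± 0.942 FPKM in the control, 8.42 ± 7.53 at 1 h, 2.40 ± 1.13 at 3 h and 0.0287 ± 0.0257 at 6 h. CAMK2N2 went from 0.0309, 3.14 and 2.16 FPKM in control libraries to 24.4, 33.7 and 19.8 in those of 1 h. FOSB and rfx3 were listed at 0 in all control libraries, so their r rests on a few libraries above 0.

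The least like nmrk2 were SPARC, a matrix protein (-0.87), CITED2 (-0.84), CSTF1 (-0.84) and ANKRD13C (-0.84). SPARC had 348 ± 66.0 FPKM in the control and 184 ± 49.5 at 1 h. The sarcomere gene most like nmrk2 was myh6 (0.74, rank 25), and the median r over the 69 sarcomere genes was -0.01. The copy NMRK2 had an r of -0.05 with nmrk2 and 0.03 with tcap.

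**Figure D4:**
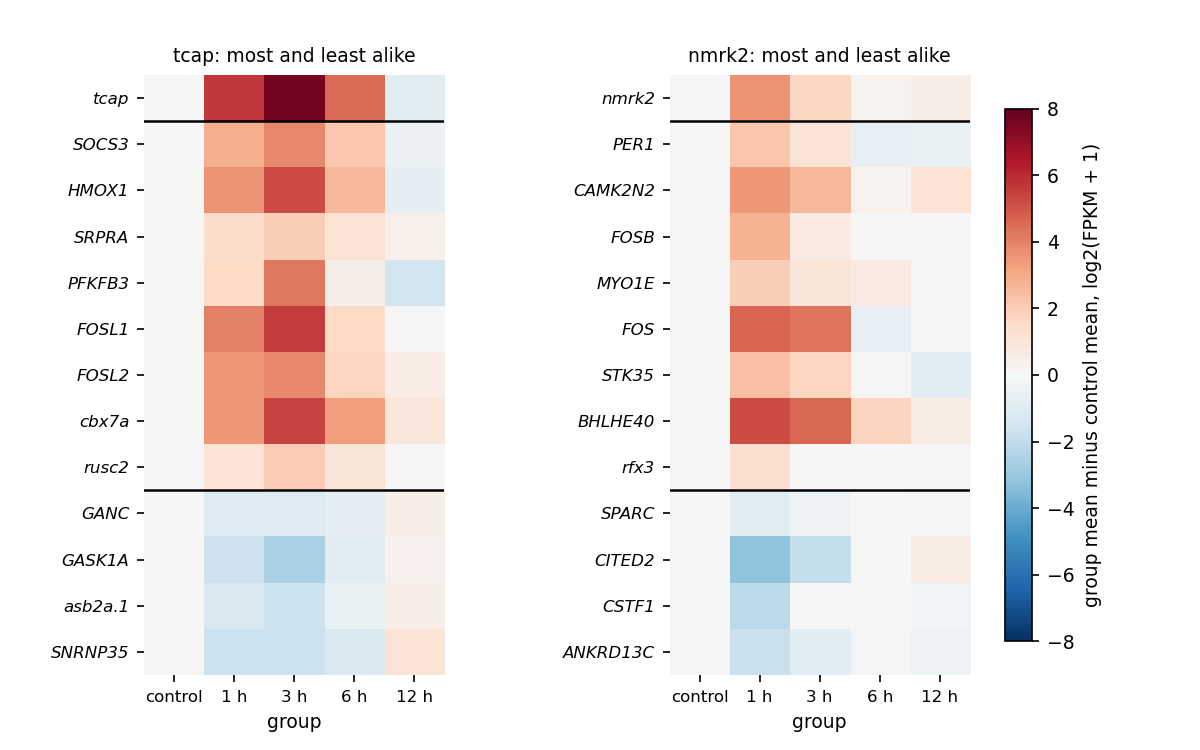
Group mean minus control mean on the log2(FPKM + 1) scale, as colour, for tcap (left) and nmrk2 (right), each followed by the 8 genes most like it and the 4 least like it by Pearson r over 15 libraries. The genes most like tcap had their strongest colour at 3 h (tcap 7.63), and those most like nmrk2 had theirs at 1 h (nmrk2 3.61).

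The genes beside each member on its chromosome were also read, up to 4 coding genes on each side in the RefSeq order of the assembly GRCz12tu. That choice was made after the values were seen. On chromosome 2, cplx4c, a complexin of the vesicle release machinery, lies next but 1 to nmrk2. It had 6.64, 9.07 and 9.53 FPKM in control A, B and C, 56.7 and 39.4 in A and C of 1 h, and 49.7 in the column named B. It then had 22.7 to 27.0 at 3 h, 16.0 to 23.2 at 6 h and 4.22 to 5.38 at 12 h. Its log2 difference was 2.40 at 1 h (SE 0.40, adjusted p = 0.0148 in limma) and 1.43 at 3 h (adjusted p = 0.0925 in limma). The call at 1 h was lost without any 1 of the control libraries or without 1 h A (adjusted p between 0.052 and 0.108 in limma), and with only the 2 groups fitted (adjusted p = 0.332 in limma).

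The other kept neighbours of nmrk2 were calr3b, si:ch211-178n15.1, the AP-1 subunit JUND and PGPEP1. None of them passed against the control. JUND had 0.193 to 1.03 FPKM in the control and 1.21, 11.2 and 1.66 at 1 h, the highest in the column named B (adjusted p = 0.62 in limma). The calreticulin gene calr3b rose from 3.33 ± 1.63 FPKM at 3 h to 21.9 ± 5.00 at 6 h (log2 difference 2.46, SE 0.53, adjusted p = 0.0308 in limma), a call lost without 3 h A or any 1 of the 6 h libraries (highest adjusted p over all alternatives 0.137). It was also lost with only the 2 groups fitted (adjusted p = 0.112 in limma) and with voom (adjusted p = 0.077). Beside tcap on chromosome 3, taok2a and zgc:123295 passed the filter and 0 of them passed the test. taok2a had 1.47 ± 0.612 FPKM in the control and 3.78 ± 1.56 at 3 h (adjusted p = 0.526 in limma).

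Several marker sums of other cell types differed from the control at 1 h or 3 h. Their part in the values of tcap and nmrk2 was not tested. The 8 skeletal muscle markers summed to 28670 to 36690 FPKM in the control, 21030 to 30490 at 1 h, 18740 to 29600 at 3 h, 34390 to 35110 at 6 h and 19940 to 32940 at 12 h. All of these groups overlapped the control. The 25 endothelial markers (21 kept) summed to 21.7 to 54.2 FPKM at 1 h and 27.7 to 52.9 at 3 h, below every control library. At 6 h, where tcap was still above every control library, they summed to 54.6 to 65.2 FPKM and overlapped the control. The 20 notochord and cartilage markers (14 kept) summed to 219 to 676 FPKM in the control. They summed to 85.1 to 288 at 1 h and 82.4 to 162 at 3 h, and SOX9 fell at 3 h (log2 difference -2.94, adjusted p = 0.0428 in limma).

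The 13 neutrophil markers (9 kept) summed to 40.5 to 65.7 FPKM in the control and 24.35 to 57.1 at 1 h. They summed to 137 to 230 at 3 h and 48.5 to 65.9 at 6 h. At 3 h, MMP9, mmp13a and adam8b rose (adjusted p = 0.000788, 0.0182 and 0.0484 in limma). These genes made up much of the 3 h sums. On average MMP9 had 0.138 FPKM in the control and 82.4 at 3 h, mmp13a 0.472 and 34.1, and adam8b 0.376 and 10.3. At 3 h, 8 of the 9 kept neutrophil markers had a positive log2 difference. How many of all kept genes did was not counted. The neutrophil granule gene npsn did not pass (47.3 ± 17.5 to 31.0 ± 11.4 FPKM, adjusted p = 0.85 in limma). The 26 macrophage markers (14 kept) summed to 213, 205 and 3142 FPKM in control A, B and C. They summed to 126 to 202 at 1 h, below every control library, and 361 to 744 at 3 h, with none past the threshold. The cathepsin gene ctsl.1 alone had 2929 FPKM in control C, and every 3 h sum lay above those of control A and B. Another cathepsin gene, ctsla, made up much of the 3 h sums (153 ± 20.1 FPKM in the control, 449 ± 148 at 3 h, adjusted p = 0.102 in limma). At 3 h, 6 of the 14 kept macrophage markers had a positive log2 difference. The median of the 14 was -0.72, against -0.13 over all kept genes. Of 13 kept epidermis markers, ITGB4 and ahnak rose at 3 h (adjusted p = 0.0462 and 0.0496 in limma), while the sums of all 16 overlapped (1630 to 3107 FPKM in the control, 1078 to 4203 at 3 h). Of these 6 marker genes past the threshold at 3 h, MMP9 passed in all 22 alternatives, and each of the others was lost in 8 to 18, among them the fits without control A, B or C or without 3 h A. The 13 erythroid markers (11 kept) summed to 2501 to 4800 FPKM in the control, 4354 to 7891 at 1 h and 997 to 5152 at 3 h.

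The 24 neural markers (18 kept) summed to 66.6 to 79.5 FPKM in the control. At 1 h they summed to 526 FPKM in the column named B, where tcap, nmrk2 and PDK2 had their highest 1 h values, against 42.4 in A and 16.0 in C. At 12 h they summed to 1476 FPKM in replicate B. In that library tcap had 11.3 FPKM and nmrk2 63.3, the highest 12 h value of each.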

How the data were processed

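The authors deposited FPKM for 32520 Ensembl gene IDs. As the labels and the submitters' processing notes have it, reads from a HiSeq 4000 were aligned with HISAT to GRCz11 (Ensembl release 106), and FPKM came from StringTie and edgeR. Tool versions are not known. Of the deposited columns, 3 match no sample in the labels and were not used. A gene name table gave symbols to 29201 IDs, and IDs with the same symbol were added up; tcap, nmrk2 and NMRK2 have 1 ID each. A few list names were matched by an alias, from the names alone.

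Genes with at least 1 FPKM in at least 3 libraries were kept (13051). log2(FPKM + 1), a pseudocount of 1, was fitted over all 15 libraries with limma 3.58.1 in R 4.3.3 (eBayes with a trend). Two-sided p-values were adjusted after Benjamini and Hochberg over the 13051 kept genes, with 0.05 as the threshold. The fit was tested on simulated data with independent libraries, in which only a set of genes was changed, at 3 h. That run cannot speak to shared animals or to calls that rest on single libraries. SE of tcap and nmrk2 come from the SD of the 2 groups compared. Values were whole multiples of 1 read: of 20690 IDs detected in 2 or more libraries, 20690 were whole (tolerance 0.001 reads, 100.0%), which gave 12486844 to 15651535 reads per library. For IDs detected in few libraries a whole multiple can nearly always be found, so for them this share is no test of the recovery. The smallest multiple was taken, so reads of such IDs can be too low. Intervals and floors of 3 reads cover counting error only, and voom used the recovered reads as an alternative.

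The members, gene lists and tests were chosen with earlier results of these data known, and the chromosomal neighbours after the values were seen. Named were the members, the 10 most abundant sarcomere genes, list genes past the threshold (filled to 3 per list by the smallest p at 3 h; for marker lists, those past it and examples of the most abundant), the 8 most and 4 least alike genes, leaving out clone names, and the genes next in level. One result that this rule takes is not reported here and stays in the counts. Gene order on a chromosome and names came from RefSeq's GRCz12tu; no coordinate is given because the builds differ. Alternatives were only the 2 groups compared, a replicate block, no filter, a pseudocount of 0.1, median ratio scaling, 1 row per gene ID, voom, the submitters' threshold and leaving out each library.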

Additional observations from a re-analysis of the deposited data

How the results depend on the processing

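With a pseudocount of 0.1, median ratio scaling or a replicate block, the log2 differences of tcap and nmrk2 moved by less than 1 SD of their libraries. The differences were also read with 1 row per gene ID and without each library of either group. Those fits could not show a move of 1 SD: each gene has 1 ID, and leaving out 1 of 3 libraries shifts a mean by less. The differences were not read with voom, with no filter or with only the 2 groups fitted. Without each library in turn, tcap ranged from 4.93 to 6.20 at 1 h, 6.92 to 8.18 at 3 h and 3.84 to 5.09 at 6 h, and nmrk2 from 3.11 to 4.12 at 1 h and 1.14 to 2.14 at 3 h. Counts of genes past the threshold over the whole table depended on the settings. At 1 h (29) the count was 7 to 53 without a library (7, 10 and 10 without control A, B and C, 12 without 1 h A, 53 without the 1 h column named B), 16 with no filter, 0 with only the 2 groups, 89 with voom and 1144 at the submitters' threshold. At 3 h (181) it was 46 to 219 without a library (46, 59 and 103 without control A, B and C, 60 and 109 without 3 h A and B), 94 with no filter, 30 with only the 2 groups, 325 with voom and 1750 at the submitters' threshold. At 6 h (0) it was 0 to 1 without a library (1 without 12 h A or B), 1 with voom and 699 at the submitters' threshold; at 12 h (0) it was 0 to 1 (1 without control A or 6 h A), 6 with no filter, 8 with voom and 941. Between 3 h and 6 h (145) it was 40 to 239 without a library, 69 with no filter, 7 with only the 2 groups and 1854 at the submitters' threshold. The cause was not tested; fits without a library or with 2 groups hold fewer samples. The median of the sarcomere genes at 3 h was -0.073 without 3 h C (range -0.073 to 0.22), and at 12 h it was -0.41 with median ratio scaling, under which NMRK2 was at -0.48.

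With the replicate letter as a replicate block, 9 genes were called at 1 h and 1 at 6 h. No pairing by letter was seen in the deviations of libraries from their group means. Over 26 pairs with the same letter, these had an r of -0.16 to 0.13. Of 14 libraries, 5 were most like one with their own letter. With 3 libraries a group, these values cannot exclude an animal shared by letter. Of the named genes, FST, ITGB4, SOX9, adam8b and ahnak at 3 h, cplx4c at 1 h and calr3b between 3 h and 6 h missed the threshold under the block. Depth limits tcap most in the control and at 12 h, where it was lowest and 3 reads are worth 0.161 to 0.196 FPKM. Its lowest values there came from 36 reads in control A and 0 reads in 12 h A.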
